A study of Mus musculus with 37 samples.

Results

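Drd2, Adora2a, Gpr6, Gpr52 and Penk are 5 genes that mark the indirect-pathway neurons of the striatum, and their signals were read in the temporal lobe of Wfs1-deficient and wild-type mice. Each gene was taken as the probe set annotated to its symbol alone, and where there were several, as the one with the highest mean over the 37 arrays. Drd2 (probe set 1418950_at), Gpr6 (1440148_at) and Penk (1427038_at) had 1 such probe set each, so that 3 of the 5 genes were measured, among 18193 genes with a probe set of a single symbol. Adora2a and Gpr52 were not analysed here. All 3 measured genes passed the filter on dim probe sets and were among the 13078 genes tested.

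The samples were Wfs1 knockout (KO) mice of the strain labelled C57 (9 arrays), wild-type (WT) C57 mice (9 arrays), Wfs1 KO mice of the strain labelled 129SV (10 arrays) and WT mice of that strain (9 arrays). The series gives these backgrounds as C57B6 and 129S6. Total RNA of dissected temporal lobes was hybridized to Affymetrix arrays, 1 array per sample, and the labels name no drug or other treatment. The labels give no sex, age, litter, hybridization day or pooling, and do not say which structures a dissected piece held. Nothing in the labels says that the arrays of a group came from separate animals, so the p-values measure only the spread between these samples, which may be technical.

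The principal neurons of the striatum are medium spiny neurons, GABAergic cells of a direct and an indirect pathway. Direct-pathway neurons project to the output nuclei of the basal ganglia and carry D1 dopamine receptors, substance P and dynorphin. Indirect-pathway neurons project to the external globus pallidus and carry D2 dopamine receptors, enkephalin and a receptor for adenosine. Drd2 encodes the D2 receptor, which lowers cAMP through inhibitory G proteins, and Adora2a encodes the adenosine receptor, which raises it. Gpr6 and Gpr52 encode orphan receptors that raise cAMP without an added ligand, and Penk encodes proenkephalin, the precursor of the enkephalins. Drd2 and Penk are also transcribed outside the striatum, Penk among others in the central amygdala.

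The targeted gene followed the genotype labels on every array. Wfs1 signal was 3.03 ± 0.26 in C57 KO and 9.32 ± 0.17 in C57 WT on the log2 scale, and 3.11 ± 0.28 in 129 KO and 9.33 ± 0.12 in 129 WT (SD, n = 9, 9, 10 and 9). Array medians lay between 4.30 and 4.36. The difference between the 3′ and 5′ probe sets of actin, a measure of RNA integrity on these arrays, ranged from 0.91 to 2.76 and averaged 1.31, 1.25, 1.26 and 1.41 in C57 KO, C57 WT, 129 KO and 129 WT. The arrays also fell into 2 sets of 19 and 18 by the signals of 40 genes after group means were removed, with 4 or 5 arrays of each group in each set. These sets were built from the signals, and no label names them. They do follow the array numbers in the titles. Within each group, every array of set 1 has a smaller number than any array of set 2. What lies behind this split was not tested. By mean correlation with their own group, 3 arrays of 129 KO (numbers 53, 57 and 59) stood furthest away (0.985313, 0.984394 and 0.976839). Array 73 of 129 WT was almost level with array 53 (0.985317).

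The promoters of the 2 receptor genes whose sequence was at hand are shown as a description, and their part in the signals was not tested. RefSeq promoter sequences matched 2 of the 5 genes, and the 250 bases before the annotated start are printed on the gene's own strand, 5′ to 3′. The Drd2 window is chr9:49340153-49340402 on the plus strand and the Gpr6 window is chr10:41072291-41072540 on the minus strand of GRCm38.p6. Capitals mark the motifs found.
Drd2: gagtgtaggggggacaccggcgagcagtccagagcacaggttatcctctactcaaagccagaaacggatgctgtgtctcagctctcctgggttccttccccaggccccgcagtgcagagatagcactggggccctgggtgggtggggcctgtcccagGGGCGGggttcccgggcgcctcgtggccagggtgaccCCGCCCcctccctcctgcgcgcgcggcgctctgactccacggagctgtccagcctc
Gpr6: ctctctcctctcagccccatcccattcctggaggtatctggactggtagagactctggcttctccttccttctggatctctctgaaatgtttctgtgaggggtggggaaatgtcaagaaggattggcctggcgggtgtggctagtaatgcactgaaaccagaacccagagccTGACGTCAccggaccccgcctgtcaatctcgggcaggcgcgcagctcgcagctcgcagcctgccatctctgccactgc

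Each window was searched on both strands for the cAMP response element TGACGTCA, its core TGACG, the GC box GGGCGG and the TATA box TATAAA. The Gpr6 window held 1 full cAMP response element, whose first base lies 78 bases before the start, and 2 cores, both of them inside that element. Of 32851 promoter windows of the same length, 1.55% held the full element and 17.8% the core. The Drd2 window held 2 GC boxes, whose first bases lie 93 and 56 bases before the start, and 32.7% of the windows held at least 1. TATAAA, present in 12.4% of windows, was in neither. The G+C content was 68.8% for Drd2 and 58.4% for Gpr6.

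The effect of Wfs1 loss within C57 was addressed first. All 3 genes had lower mean signals in C57 KO than in C57 WT temporal lobes, by 0.59 for Drd2, 0.77 for Gpr6 and 0.26 for Penk on the log2 scale, and none passed the adjusted threshold. The D2 receptor gene Drd2 had a signal of 5.91 (lowest), 6.39 (median) and 7.10 (highest) over the 9 C57 KO arrays, against 6.29, 7.07 and 7.72 over the 9 C57 WT arrays. The groups overlapped: 3 of 9 KO arrays lay below the lowest WT array, and 8 of 9 below the WT median, array 17 being the exception. The difference was -0.59 (SE 0.18, 95% confidence interval -0.95 to -0.22), or -33.4% on the linear scale (limma, unadjusted p = 0.00233, adjusted p = 0.388 over all 13078 genes).

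The orphan receptor gene Gpr6 had a signal of 5.68 (lowest), 6.67 (median) and 7.48 (highest) over the C57 KO arrays, against 6.46, 7.35 and 8.00 over the C57 WT arrays. Here 4 of 9 KO arrays lay below every WT array and 8 of 9 below the WT median, again with array 17 as the exception. The difference was -0.77 (SE 0.19, 95% confidence interval -1.15 to -0.39), or -41.2% on the linear scale (limma, unadjusted p = 0.000226, adjusted p = 0.148). Of the 13078 genes tested, 5 had a more negative difference than Gpr6 in C57, against 21 for Drd2 and 121 for Penk. By p in either direction (limma) the order differed, with rank 20 for Gpr6, 46 for Penk and 78 for Drd2.

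The proenkephalin gene Penk had a signal of 10.01 (lowest), 10.30 (median) and 10.45 (highest) over the C57 KO arrays, against 10.18, 10.58 and 10.88 over the C57 WT arrays. All 9 KO arrays lay below the WT median and 7 of 9 WT arrays above the highest KO array, although the ranges overlapped. The difference was -0.26 (SE 0.07, 95% confidence interval -0.41 to -0.11), or -16.6% on the linear scale (limma, unadjusted p = 0.00109, adjusted p = 0.309). C57 WT array 37 was the lowest WT array for all 3 genes and the only WT array below the KO median, and C57 WT array 26 was the highest for all 3.

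Of the 3 measured genes, 0 were called at an adjusted p under 0.05 in C57, where 0.107% of all genes tested were called (limma). With no adjustment, 3 of 3 were lower at p under 0.05, against 1.7% of all genes. The genes had been proposed with results of these data in view, so this count is a description. In pieces of bulk tissue, fewer cells of a type, less RNA per cell and less striatum in the dissected piece cannot be told apart.

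**Figure D1:**
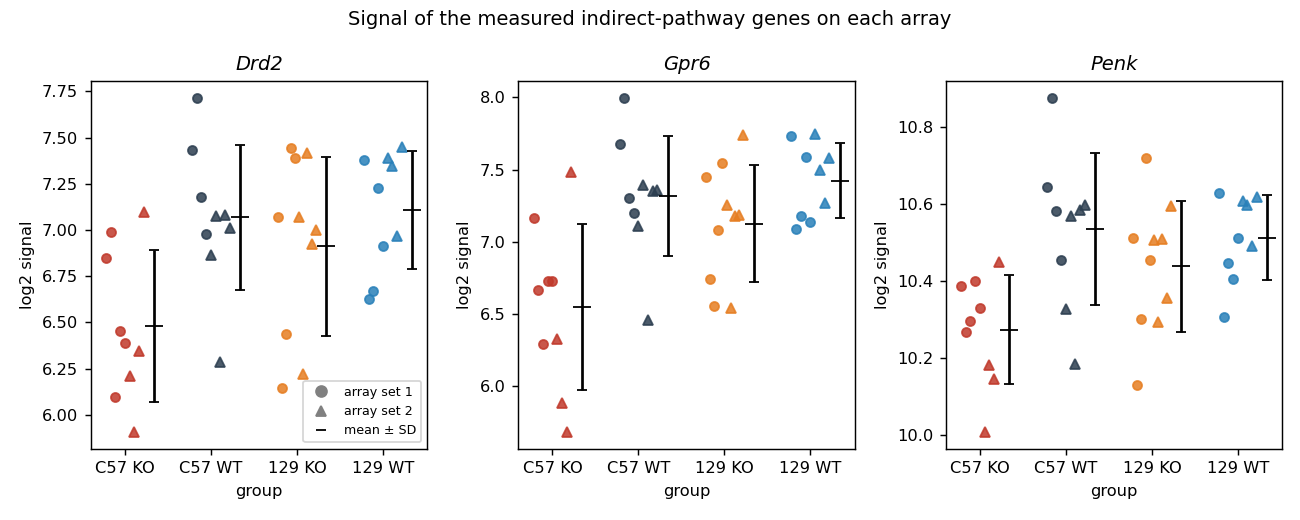
Log2 signal of Drd2, Gpr6 and Penk (1 panel each) by group, with 1 point per array and the mean and SD of each group. In C57 the KO arrays lie lower than most WT arrays for each gene, with overlap, and in 129 the KO and WT arrays overlap more.

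Values within the 2 array sets ran the same way in C57. Gpr6 differed by -0.83 (SE 0.21) between 5 KO and 4 WT arrays of set 1 and by -0.79 (SE 0.29) between 4 KO and 5 WT arrays of set 2. Drd2 differed by -0.77 (SE 0.25) in set 1 and -0.47 (SE 0.23) in set 2, and Penk by -0.30 (SE 0.10) and -0.26 (SE 0.10). With the set as a block the differences were -0.78 for Gpr6, -0.59 for Drd2 and -0.27 for Penk (limma, adjusted p between 0.123 and 0.338).

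Within 129 the same comparison gave smaller differences, and 0 of the 3 genes were called, where 0.00765% of all genes tested were called (limma). With no adjustment, 0 of 3 were lower at p under 0.05, against 1.25% of all genes. Drd2 had a signal of 6.15 (lowest), 7.03 (median) and 7.44 (highest) over the 10 arrays of 129 KO, against 6.63, 7.23 and 7.45 over the 9 arrays of 129 WT. The ranges overlapped almost fully at the top, and 3 of 10 KO arrays lay below the lowest WT array. The Drd2 difference was -0.20 (SE 0.18, 95% confidence interval -0.55 to 0.16).

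Gpr6 had a signal of 6.54, 7.18 and 7.74 (lowest, median and highest) in 129 KO, against 7.09, 7.50 and 7.75 in 129 WT. Here 4 of 10 KO arrays lay below the lowest WT array and 8 of 10 below the WT median. The Gpr6 difference was -0.30 (SE 0.18, 95% confidence interval -0.67 to 0.07). Penk had a signal of 10.13, 10.48 and 10.72 in 129 KO, against 10.31, 10.51 and 10.63 in 129 WT, so that the KO range covered the WT range on both sides. The Penk difference was -0.07 (SE 0.07, 95% confidence interval -0.22 to 0.07), and the adjusted p was 0.9997 for each of the 3 genes (limma). Without arrays 53, 57 and 59 the differences in 129 were -0.36 for Drd2, -0.39 for Gpr6 and -0.15 for Penk, and none was called. This cut left out KO arrays only, and 129 WT array 73, almost level with array 53, was kept.

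Array sets 1 and 2 gave -0.07 and -0.36 for Drd2, -0.27 and -0.35 for Gpr6, and -0.04 and -0.13 for Penk in 129. The difference between the KO effects, C57 minus 129, was tested itself. It was -0.39 (SE 0.25, unadjusted p = 0.129) for Drd2, -0.47 (SE 0.26, unadjusted p = 0.0826) for Gpr6 and -0.19 (SE 0.10, unadjusted p = 0.0789) for Penk, with an adjusted p of 0.999 for each (limma). Of the 3 genes, 0 were called, against 0.0153% of all genes tested, so a difference in response between the strains was not shown for any of them. The confidence intervals, -0.90 to 0.12 for Drd2, -1.001 to 0.06 for Gpr6 and -0.40 to 0.02 for Penk, also hold differences as large as the C57 effects.

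Averaged over both strains, KO minus WT was -0.39 (SE 0.13) for Drd2, -0.53 (SE 0.13) for Gpr6 and -0.17 (SE 0.05) for Penk. Adjusted p was 0.685, 0.289 and 0.645 in that order (limma), and 0 of 3 were called, against 0.0229% of all genes. With no adjustment 3 of 3 were lower at p under 0.05, against 1.99% of all genes. This average shares its arrays with the comparisons within each strain.

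The strain comparison in WT mice gave differences near 0 over all arrays, and differences of opposite sign in the 2 array sets. Drd2 was 7.11 ± 0.32 in 129 WT and 7.07 ± 0.39 in C57 WT, Gpr6 was 7.42 ± 0.26 and 7.32 ± 0.42, and Penk was 10.51 ± 0.11 and 10.53 ± 0.20 (SD, n = 9 each). The differences were 0.04 (SE 0.18), 0.11 (SE 0.19) and -0.02 (SE 0.07), and 0 of 3 were called, against 2.06% of all genes tested (limma, adjusted p = 0.981, 0.928 and 0.969). The 95% confidence intervals ran from -0.33 to 0.40 for Drd2, -0.27 to 0.49 for Gpr6 and -0.17 to 0.13 for Penk. In array sets 1 and 2 the differences were -0.36 and 0.43 for Drd2, -0.20 and 0.39 for Gpr6, and -0.18 and 0.13 for Penk. In each set 0 of 3 were called (limma).

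Among KO mice the 3 genes had higher means in 129. Drd2 was 6.91 ± 0.48 in 129 KO and 6.48 ± 0.41 in C57 KO, Gpr6 was 7.13 ± 0.41 and 6.55 ± 0.57, and Penk was 10.44 ± 0.17 and 10.27 ± 0.14 (SD, n = 10 and 9). The differences were 0.43 (SE 0.18, adjusted p = 0.248), 0.58 (SE 0.18, adjusted p = 0.0810) and 0.16 (SE 0.07, adjusted p = 0.303) by limma, and 0 of 3 were called, against 3.06% of all genes tested. With no adjustment 3 of 3 were higher at p under 0.05, against 4.43% of all genes. The C57 KO arrays enter this comparison and the KO effect in C57 alike. For each gene, C57 KO had the lowest mean of the 4 groups, followed by 129 KO. The means of 129 KO, 129 WT and C57 WT lay within 1 SD of 129 KO of each other for Drd2, Gpr6 and Penk.

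Drd2 and Gpr6 varied more between arrays of a group than most genes. The SD after group means were removed was 0.409 for Drd2 and 0.428 for Gpr6, at the 98.8 and 99.0 percentiles of the 13078 genes tested. Penk, with an SD of 0.159, stood at the 48.4 percentile. Probe sets differ in how steeply their signal follows the amount of RNA, so these spreads are not compared as amounts between the genes.

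The 3 genes moved together from array to array. After group means were removed, Gpr6 followed Drd2 with Pearson r = 0.813 and Spearman rho = 0.815 over 37 arrays, and Penk followed Drd2 with r = 0.804 and rho = 0.785. The permutation p within groups was 1e-05 for each, the smallest that 100000 permutations can give, and 1e-05 adjusted over these 2 relations. The genes were chosen as markers of a cell class, with earlier results of these data known, and share each array's RNA. A positive r was thus likely beforehand, so these p-values and those within the array sets are descriptions. Without the 2 arrays farthest from the Drd2 median the correlations were 0.787 for Gpr6 and 0.734 for Penk.

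Within array set 1 Gpr6 and Penk correlated with Drd2 at r = 0.817 and 0.761 (permutation p adjusted 0.00074 and 0.0011), and within set 2 at 0.818 and 0.794 (permutation p adjusted 0.0029 and 0.0019). Gpr6 and Penk correlated with each other at r = 0.752, given as a description. By group, r between Drd2 and Gpr6 was 0.794 in C57 KO, 0.988 in C57 WT, 0.731 in 129 KO and 0.923 in 129 WT. For Drd2 and Penk it was 0.587, 0.949, 0.848 and 0.812 in the same groups, so every group showed the relation in the same direction. Against all genes tested, the median r was 0.05 with Drd2, 0.08 with Gpr6 and 0.02 with Penk, and the 95th percentiles were 0.439, 0.484 and 0.351.

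Correlations with the actin 3′ to 5′ difference were 0.06 for Drd2, -0.10 for Gpr6 and -0.14 for Penk. With the score that separates the 2 array sets they were 0.02, -0.01 and -0.04. These r values pool strains in which the sets differed in opposite directions. For Drd2, Gpr6 and Penk, set 1 had higher means than set 2 in both C57 groups. In both 129 groups set 1 had the lower means. Drd2 averaged 7.33 and 6.86 in C57 WT (sets 1 and 2), and 6.96 and 7.29 in 129 WT. In KO mice Drd2 averaged 6.56 and 6.39 in C57, and 6.90 and 6.93 in 129. The pooled r thus does not show that the sets were alike.

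The 3 genes also followed the markers of other medium spiny neurons. The mean of 19 markers common to both pathways correlated with Drd2 at r = 0.946, with Gpr6 at 0.799 and with Penk at 0.796 over the 37 arrays after group means were removed. The mean of 8 direct-pathway markers correlated with Drd2 at 0.780, with Gpr6 at 0.926 and with Penk at 0.757. Taken singly, these 8 had a median r of 0.510 with Drd2, 0.594 with Gpr6 and 0.604 with Penk. Their lowest r was 0.106, 0.260 and 0.131 in that order. For the 19 common markers taken singly, the median r was 0.750, 0.686 and 0.665. These r values are descriptions, since markers and members share each array's RNA. Per log2 unit of the common marker mean, the fitted slope was 1.61 for Drd2, 1.42 for Gpr6 and 0.525 for Penk, in log2 units.

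**Figure D2:**
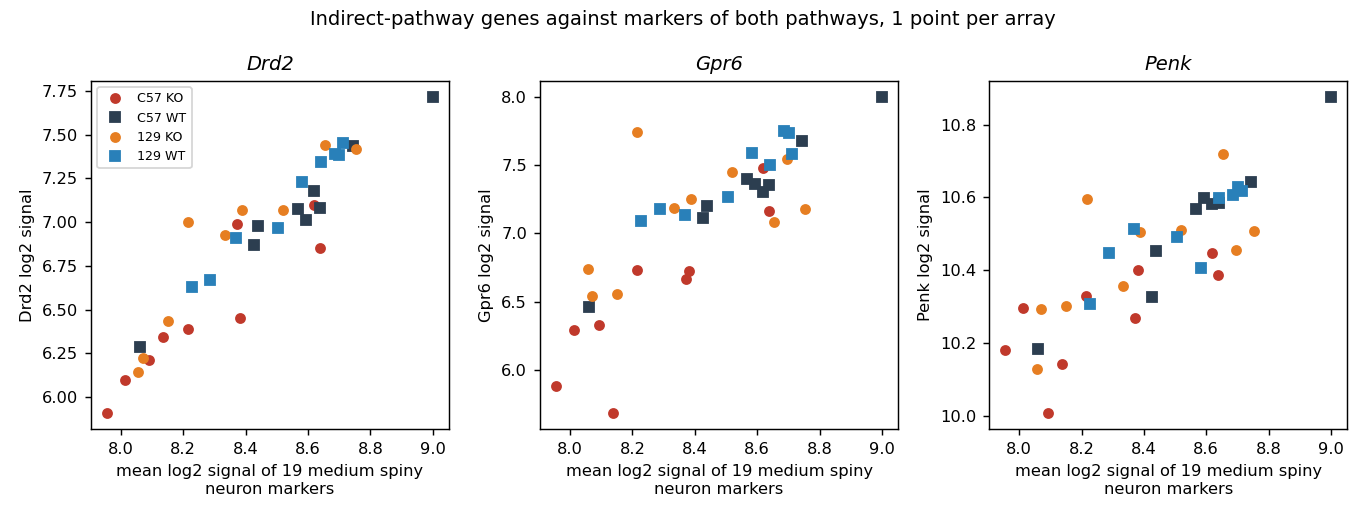
Log2 signal of Drd2, Gpr6 and Penk (vertical axes) against the mean log2 signal of 19 medium spiny neuron markers (horizontal axes), 1 point per array, coloured by group. Each gene climbs with the marker mean in all 4 groups, and Drd2 lies closest to a single line (r = 0.946 after group means were removed).

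The common marker mean ranged from 7.96 to 8.64 in C57 KO (mean 8.27 ± 0.25) and from 8.06 to 9.00 in C57 WT (mean 8.57 ± 0.26). In 129 KO it ranged from 8.06 to 8.75 (mean 8.38 ± 0.26), and in 129 WT from 8.23 to 8.71 (mean 8.52 ± 0.19). The part of the marker mean in the members' differences was not tested. With this mean as a covariate, given as a description, KO minus WT in C57 was -0.11 (SE 0.07) for Drd2, -0.35 (SE 0.13) for Gpr6 and -0.11 (SE 0.05) for Penk (limma, adjusted p = 0.685, 0.440 and 0.612).

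Of the 19 common markers, 19 had a lower mean in C57 KO than in C57 WT, against 38.4% of all genes tested. At an unadjusted p under 0.05, 14 of 19 were lower, against 1.7% of all genes. The median difference of the 19 was -0.25, against 0.02 over all genes, and 0 were called. The largest differences were -0.60 for Pde10a, the phosphodiesterase that breaks down cAMP and cGMP in medium spiny neurons, -0.59 for Scn4b, a sodium channel beta subunit, -0.59 for Syndig1l and -0.50 for Rasd2, a striatal small GTPase. In 129, 19 of 19 were lower, against 52.4% of all genes, 0 of them at an unadjusted p under 0.05, with a median of -0.14.

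Direct-pathway markers had negative differences in C57 as well. Of 8 tested, 8 were lower in C57 KO, against 38.4% of all genes, with a median of -0.19. At an unadjusted p under 0.05, 3 of 8 were lower, against 1.7% of all genes, and 0 were called. Those 3 were Slc35d3 (-0.38), a nucleotide sugar transporter gene, Drd1 (-0.37), the D1 dopamine receptor gene, and Tac1 (-0.34), which encodes the precursor of substance P. In 129, 7 of 8 were lower, against 52.4% of all genes, with a median of -0.06 and 0 called. Other indirect-pathway genes, Six3, Grik3 and Plxdc1, had differences of -0.21, -0.05 and 0.07 in C57, 0 of 3 at an unadjusted p under 0.05. In 129 their differences were -0.08, -0.12 and -0.13, also 0 of 3 at an unadjusted p under 0.05. In 129 KO minus C57 KO, where the members had positive differences, Plxdc1 was lower in 129 KO (-0.29, SE 0.08, limma adjusted p = 0.0331), and Six3 and Grik3 had differences of 0.20 and 0.13. The mean of these 3 genes correlated with that of the members at r = 0.261.

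**Figure D3:**
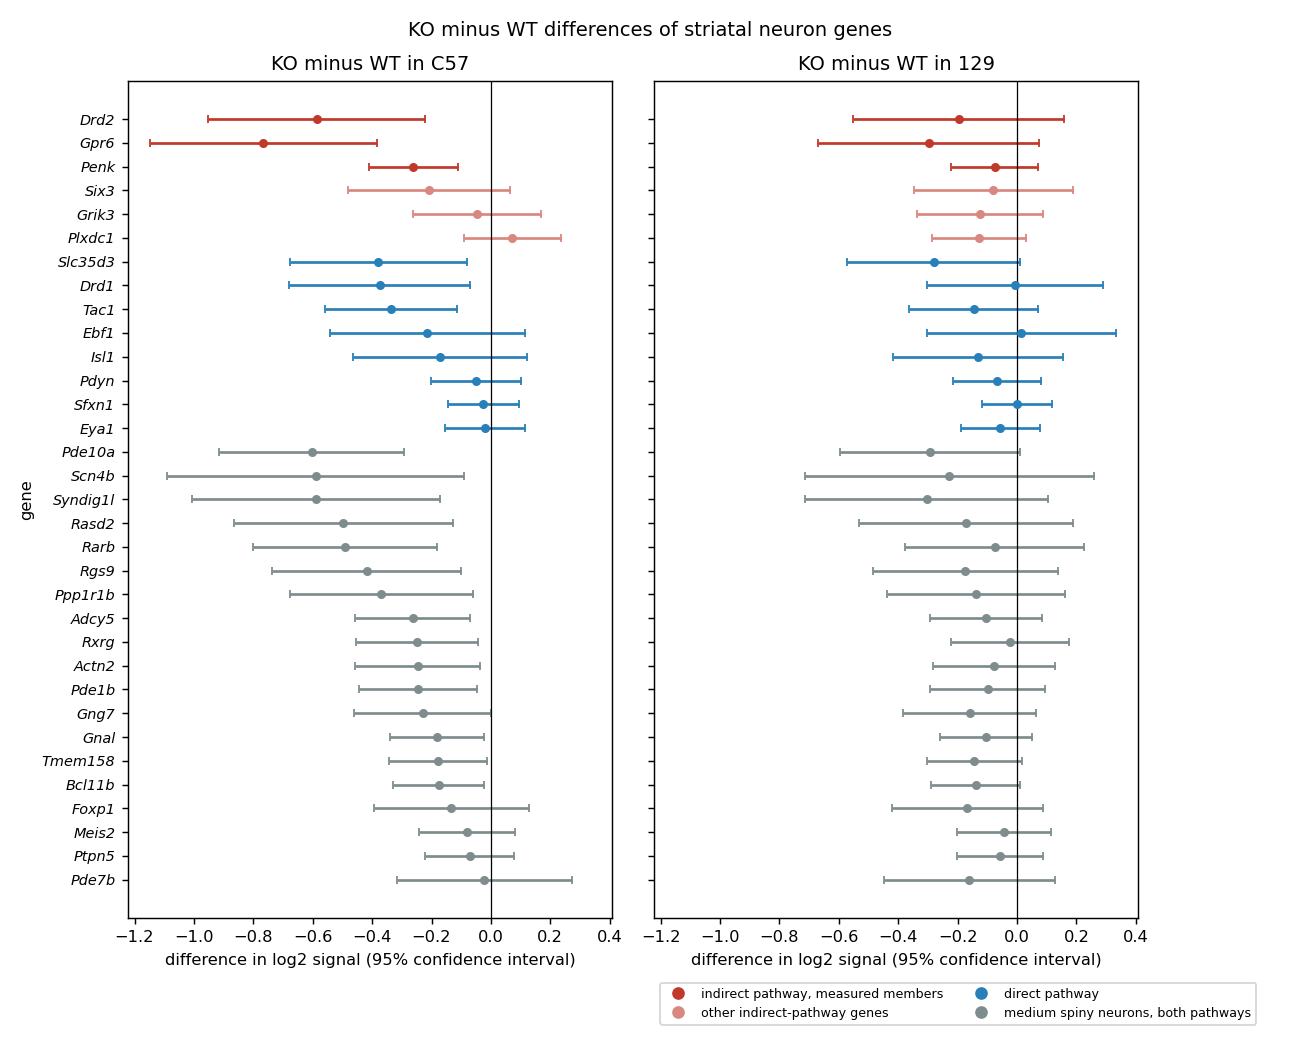
KO minus WT difference in log2 signal (horizontal axis, with 95% confidence interval) for the 3 measured members, other indirect-pathway genes, direct-pathway genes and common medium spiny neuron markers, in C57 (left) and 129 (right). In C57 Gpr6 lies furthest below 0 at -0.77, and the 19 common markers all lie below 0 in both strains.

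Within-array differences, chosen after the values had been seen, set the members against the common marker mean and against each other. Gpr6 minus the marker mean was -1.72 ± 0.37 in C57 KO and -1.25 ± 0.17 in C57 WT (SD, n = 9 each), a difference of -0.47 (SE 0.14, exact 2-sided permutation test, p = 0.0237 adjusted over 12 tests). Drd2 minus the marker mean differed by -0.29 (SE 0.09, exact permutation p = 0.0323 adjusted), and Penk minus the marker mean by 0.03 (SE 0.06, exact permutation p = 0.600 adjusted). Since Drd2 and Gpr6 had slopes above 1 log2 unit per unit of the marker mean, and Penk a slope below 1, such differences move with the marker mean itself.

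Gpr6 minus Penk differed by -0.50 (SE 0.18, exact permutation p = 0.0405 adjusted) in C57. Gpr6 minus Drd2 differed by -0.18 (SE 0.12, exact permutation p = 0.343 adjusted), and Drd2 minus Penk differed by -0.33 (SE 0.14, exact permutation p = 0.0929 adjusted). The slopes on the marker mean were 1.61 for Drd2, 1.42 for Gpr6 and 0.525 for Penk. Gpr6 minus Penk and Drd2 minus Penk thus also move with the marker mean, whose part in them was not tested. In 129, 0 of the 6 within-array differences passed with all arrays. Gpr6 minus the marker mean differed there by -0.16 (SE 0.12, exact permutation p = 0.368 adjusted), and by -0.24 without 129 KO array 59 (exact permutation p = 0.0334 adjusted), the array named above among the 3 furthest from their group.

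The 3 differences that passed in C57 lay close to the threshold and kept their size. With 1 of the 18 arrays left out, Gpr6 minus the marker mean ranged from -0.54 to -0.38, with an adjusted exact permutation p of at most 0.0597. It no longer passed without WT array 25, 26 or 29. Drd2 minus the marker mean ranged from -0.34 to -0.26 (adjusted exact permutation p at most 0.0632) and no longer passed in 9 of the 18 cases. Gpr6 minus Penk ranged from -0.60 to -0.41 (adjusted exact permutation p at most 0.0844) and no longer passed in 14.

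Within array sets 1 and 2 Gpr6 minus the marker mean differed by -0.45 and -0.53, Drd2 minus the marker mean by -0.39 and -0.22, and Gpr6 minus Penk by -0.53 and -0.53. With 4 arrays against 5 the smallest exact permutation p is 0.00794, so that no call within a set is read from these values.

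The genes most like the members were sought over all genes tested. By Pearson r with the mean of the 3 members over the 37 arrays after group means were removed, the 8 most alike were Rgs9 (0.915), Lrrc10b (0.912), Mme (0.903), Sh3rf2 (0.901), Lingo3 (0.899), Strn (0.894), Rasgrp2 (0.885) and Scn4b (0.875). Rgs9 encodes a striatal regulator of G protein signalling that shortens D2 receptor responses. Mme encodes neprilysin, which degrades enkephalins, Strn encodes striatin, a calmodulin-binding scaffold, and Rasgrp2 an exchange factor for Rap GTPases. In C57 their KO minus WT differences ran from -0.75 for Mme and -0.63 for Lrrc10b to -0.26 for Lingo3 and -0.24 for Strn, and 0 of 8 passed (limma).

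Genes that make, break down or receive the same transmitters were read from lists. Of 8 genes for enkephalin processing, breakdown and opioid receptors, 5 were lower in C57 KO, against 38.4% of all genes, and 0 were called. Mme differed by -0.75 (SE 0.27) and Oprk1, the kappa opioid receptor gene, by -0.29 (SE 0.10), while Oprm1, the mu receptor gene, differed by -0.09 and Pcsk1, a prohormone convertase gene, by 0.11. Of the 3 other opioid precursor genes, 1 was lower, against 38.4% of all genes, and 2 were higher. Their median was 0.10, and 0 were called.

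Of 5 dopamine genes, 2 were lower in C57 KO, against 38.4% of all genes. They were Drd1 and Th (-0.23), the gene for the rate-limiting enzyme of dopamine synthesis. Of 6 adenosine genes, 5 were lower, against the same 38.4%, with a median of -0.05. Nt5e, which makes extracellular adenosine from AMP, differed by -0.28 (SE 0.12). The orphan receptor genes most related to Gpr6, Gpr3 and Gpr12, differed by -0.07 and -0.03 in C57. None of these genes was called.

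Of 31 genes of cAMP and DARPP-32 signalling downstream of the receptors, 18 were lower and 13 higher in C57 KO. Over all genes tested, 38.4% were lower. The median of the 31 was -0.02, and 0 were called. The 6 at an unadjusted p under 0.05 were all lower, against 1.7% of all genes, and are also common markers of medium spiny neurons. They include Pde10a, Rgs9 (-0.42), Ppp1r1b (-0.37), which encodes DARPP-32, and Adcy5 (-0.26), the main striatal adenylyl cyclase. In 129, 18 of 31 were lower, against 52.4% of all genes, and 0 passed with or without adjustment.

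Markers of other cells in the piece were read in the same way. Beside the counts below, 38.4% of all genes tested were lower in C57 KO and 52.4% in 129 KO. Among central amygdala markers 3 of 7 were lower in C57 KO, with a median of 0.01, and the list mean correlated with the members' mean at r = 0.124. Prkcd (0.23) and Sema3c (0.21) were higher in C57 KO at an unadjusted p under 0.05, and 0 were called (limma). The share of all genes higher at that threshold is not given here, so the 2 genes are a description. In 129 Prkcd differed by 0.17 (limma, unadjusted p = 0.0241, adjusted p = 0.9997) and Sema3c by -0.05. Oligodendrocyte and myelin markers were lower for 9 of 10 in C57 (median -0.15) and 10 of 10 in 129 (median -0.08), with r = 0.455 and 0 called. Striatal interneuron markers were lower for 5 of 7 (r = 0.719), cortical excitatory neuron markers for 3 of 9 (r = -0.155), hippocampal markers for 2 of 6 (r = 0.087), astrocyte markers for 3 of 7 (r = 0.060) and microglial markers for 3 of 8 (r = 0.445). Vessel markers were lower for 2 of 7 (r = 0.054), choroid plexus markers for 3 of 4 (r = -0.114) and thalamic and hypothalamic markers for 5 of 8 (r = 0.221). Each r is that of a list mean. The median r of single genes could lie lower, as for striatal interneuron (0.432) and hippocampal markers (-0.262), or higher, as for choroid plexus markers (0.087). The part of these other cells in the members' differences was not tested.

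**Figure D4:**
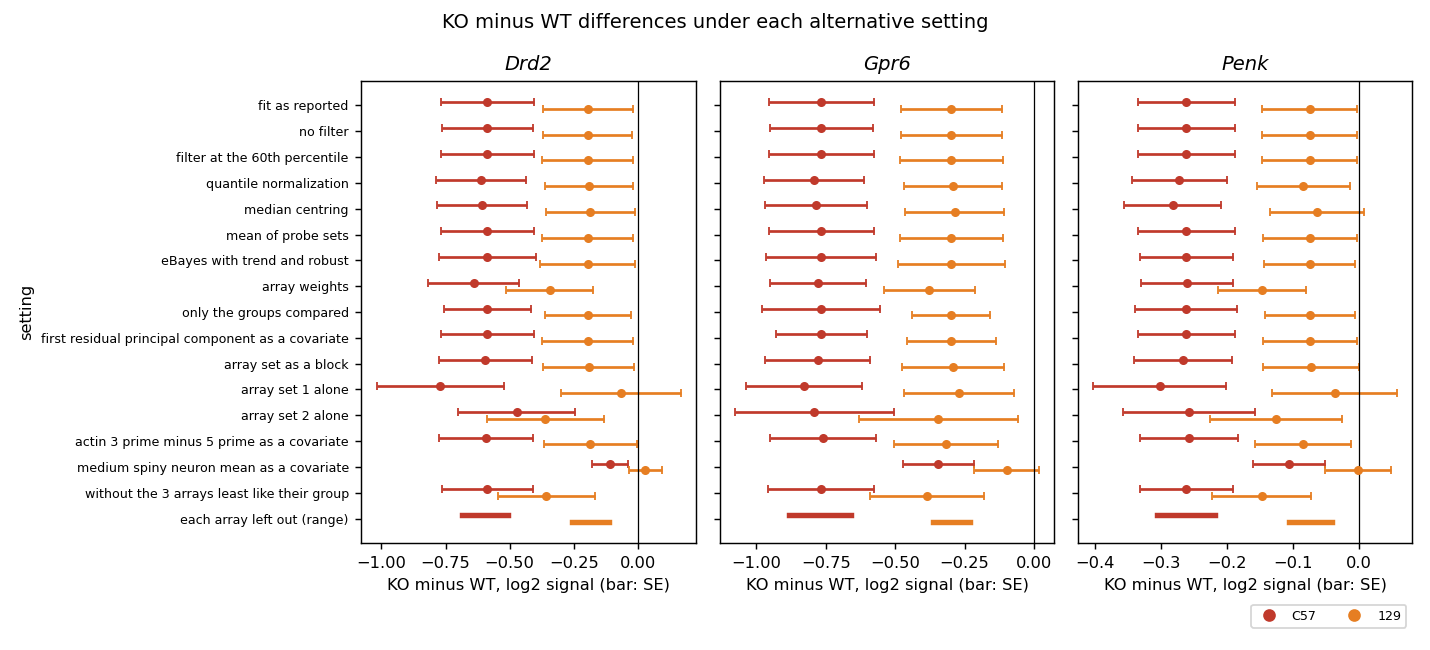
KO minus WT difference in log2 signal (horizontal axes, with SE) for Drd2, Gpr6 and Penk under each setting of the analysis, in C57 and 129, with the range over fits that leave out 1 array. All C57 values stay below 0, and those with the common marker mean as a covariate lie nearest to it (-0.11 for Drd2).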

How the data were processed

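Affymetrix arrays of biotin-labelled cRNA, 1 per sample, were read from a table of 45101 probe sets by 37 samples. The deposited values are log2 signals, as their range of 1.34 to 13.76 and array medians of 4.30 to 4.36 show. MAS5 and GCRMA are named in the submitters' processing notes, with no word on which of them made the values. Depth has no count here, and the number of arrays limits the precision.

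Control probe sets (64) were left out. Of the rest, 34945 had a single gene symbol in the platform annotation, 932 several and 9160 none. Each of 18193 genes was taken as its brightest probe set by mean. The 13078 whose highest group mean reached the 40th percentile of all probe set means (log2 signal 3.60) were tested. limma 3.58.1 in R 4.3.3 fitted 4 group means, with Benjamini-Hochberg adjustment over all 13078 genes and a threshold of 0.05, after a check on simulated data. Correlations used permutations within groups and were adjusted over the 2 relations measured. Within-array differences used exact permutation tests. Named genes were the members, Wfs1, the 8 genes most alike, and from each list up to 4 genes with the largest difference. Direct-pathway and common markers, pathway genes and markers of other cells were lists. The members and lists were chosen with earlier results of these data known. Array sets 1 and 2 were rebuilt here from the 40 genes closest to Gprin3, after group means were removed; 1 listed gene, Gsk3b, and 0 members are among the 40.

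Alternatives changed the filter, normalization, probe set rule, variance model, covariates and arrays. Promoters came from RefSeq (GRCm38.p6), and Python 3.11.15 with SciPy 1.17.1 made the rest.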

Additional observations from a re-analysis of the deposited data

Results flagged for a closer look

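No member had an array far from the rest of its group, and 0 members had KO effects that differed between the strains at an adjusted p under 0.05 (limma; with no adjustment p ranged from 0.0789 to 0.129). In 2 of 28 sets of values tested, 1 array stood far from its group, where chance alone gives about 1.4. Wfs1 had a log2 signal of 9.73 in C57 WT array 42, where the nearest array of that group had 9.38. The actin 3′ minus 5′ difference was 2.76 in 129 WT array 73, where the nearest array of that group had 1.77.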

How the results depend on the processing

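The KO minus WT differences of Drd2, Gpr6 and Penk in C57 kept their sign in all 52 alternative fits. Their count of calls was 0 as reported and 1, always Gpr6, with array weights (limma, adjusted p = 0.042) and with the first residual principal component as a covariate (adjusted p = 0.0310). With 1 array left out the count ranged from 0 to 1, Gpr6 being called without C57 KO array 17 (adjusted p = 0.0247) or C57 WT array 37 (adjusted p = 0.0364). The average over strains had 1 call, Gpr6, with array weights (adjusted p = 0.0265). For 129 KO minus C57 KO the count was 1 with the first principal component (Gpr6, adjusted p = 0.0301), 2 with the medium spiny neuron mean as a covariate (Drd2 and Gpr6), and 0 to 1 with 1 array left out (Gpr6 without C57 KO array 1 or 17). That covariate moved the median of the 3 differences to -0.11 in C57 and -0.054 averaged over strains, and turned Drd2 in 129 to 0.028. In 129 WT minus C57 WT, set 2 alone moved the median to 0.39, and the sign turned for Penk with array weights (0.0045), for Drd2 (-0.36) and Gpr6 (-0.20) in set 1, and for Penk in set 2 (0.13). With 1 array left out these ran from -0.059 to 0.12 for Drd2, -0.00026 to 0.19 for Gpr6 and -0.066 to 0.0202 for Penk. Of the within-array differences, the sign turned for Penk minus the marker mean in 129 set 1 (-0.019) and C57 set 2 (-0.00040), with a range of -0.00024 to 0.066 with 1 C57 array left out, and for Gpr6 minus Drd2 in 129 set 2 (0.017). Drd2 minus Penk in C57 passed in 3 of 18 such fits, and Gpr6 minus the marker mean in 129 passed without 129 KO array 59 (-0.24, adjusted p = 0.0334 by exact permutation). The cause was not tested. Each gene has 1 probe set, so no second probe set could be tried. No paired analysis was possible because the groups share no replicate number.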
